A study of Mus musculus with 10 samples.

Results

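Secondary and tertiary granule genes of neutrophils were followed through 6 members, Ltf, Camp, Ngp, Fcnb, Mmp8 and Pglyrp1, found by gene symbol in the annotation of a spotted mouse array. The members were chosen with earlier results of these data known, so their ranks and counts are descriptions. Each of the 6 had 1 probe on the array, so 6 of 6 were measured among 20243 features. RNA came from FDB1 cells, a mouse myeloid progenitor line that needs IL-3, carrying either the FI-Delta Y577F or the FI-Delta mutant of the receptor subunit shared by GM-CSF, IL-3 and IL-5. FI-Delta is an activated form of that subunit, and Y577F replaces a single tyrosine of its intracellular tail with phenylalanine. All groups therefore carry FI-Delta. Receptor form and cell line go together here, so an effect of Y577F cannot be told apart from any other difference between the lines. The RNA groups were FI-Delta Y577F cells 72 h after washing out of IL-3, FI-Delta Y577F cells growing in IL-3 (0 h), FI-Delta cells 72 h after washing, and FI-Delta cells growing in IL-3 (0 h). The design text gives 2 cultures per line, and no RNA came from cells kept in IL-3 for 72 h, so an effect of losing the factor cannot be told apart from that of the washes or of 72 h in culture. Pairs of groups were hybridised to 10 arrays in 2 colours, namely 2 arrays of Y577F against FI-Delta at 72 h, 3 at 0 h, 2 of 72 h against 0 h in Y577F cells and 3 in FI-Delta cells. All values below are log2 ratios of RNA, turned so that Y577F stands over FI-Delta and 72 h over 0 h. Their direction on the arrays is likely Cy5 over Cy3 but is not stated, and turning it would turn every direction given here. Csf2rb, which encodes this subunit in mice, was not analysed here, so the labels were not checked against the receptor's own RNA.

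Neutrophils store their antimicrobial and matrix-degrading proteins in granules that are filled in order as the cells mature in the marrow. Primary granules are made at the promyelocyte stage, and secondary (specific) and tertiary (gelatinase) granules are filled later, at the myelocyte and metamyelocyte stages. RNA for secondary granule proteins is thus used as a sign of late granulocyte maturation, and in this stage C/EBP factors, among them C/EBP epsilon, drive these genes. Among the members, Ltf encodes lactoferrin, which binds iron, Camp encodes the cathelicidin antimicrobial peptide and Ngp encodes a neutrophil granule protein related to the cathelicidins. Fcnb encodes ficolin B, a lectin that recognises microbial sugars, and Pglyrp1 encodes a protein that binds bacterial peptidoglycan. Mmp8 encodes the neutrophil collagenase.

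The promoters of 4 members are shown because they set Ltf, Camp and Ngp, all on chromosome 9 and among the lowest features in Y577F cells, beside the member whose pattern differed most (Mmp8, also on chromosome 9). Sequences are from RefSeq, build GRCm38.p6, from 250 bases before to 50 bases after the annotated start, 5′ to 3′ on the gene's strand. Ltf lies at chr9:111019042-111019341 on the plus strand, Camp at chr9:109849407-109849706 on the minus strand, Ngp at chr9:110419558-110419857 on the plus strand and Mmp8 at chr9:7558179-7558478 on the plus strand. Capitals mark the matches to the motifs searched on both strands, TTNNGNAAT for C/EBP, GAGGAA for PU.1 and TATAAA for the TATA box.
Ltf: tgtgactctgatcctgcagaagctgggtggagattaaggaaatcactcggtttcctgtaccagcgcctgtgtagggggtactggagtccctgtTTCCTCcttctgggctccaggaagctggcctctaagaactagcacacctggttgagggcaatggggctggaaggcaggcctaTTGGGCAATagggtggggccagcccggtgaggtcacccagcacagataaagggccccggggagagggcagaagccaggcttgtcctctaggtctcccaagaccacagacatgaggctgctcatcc
Ngp: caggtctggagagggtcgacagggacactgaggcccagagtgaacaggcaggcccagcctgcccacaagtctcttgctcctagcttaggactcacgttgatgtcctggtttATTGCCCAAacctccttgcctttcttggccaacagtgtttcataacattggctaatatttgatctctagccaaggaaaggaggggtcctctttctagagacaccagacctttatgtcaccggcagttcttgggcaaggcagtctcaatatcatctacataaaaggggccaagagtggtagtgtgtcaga
Camp: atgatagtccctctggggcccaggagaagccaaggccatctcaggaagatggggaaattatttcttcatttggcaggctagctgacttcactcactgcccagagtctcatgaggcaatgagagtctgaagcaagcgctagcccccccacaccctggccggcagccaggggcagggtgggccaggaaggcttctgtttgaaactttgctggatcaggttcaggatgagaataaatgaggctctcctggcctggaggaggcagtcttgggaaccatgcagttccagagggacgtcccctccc
Mmp8: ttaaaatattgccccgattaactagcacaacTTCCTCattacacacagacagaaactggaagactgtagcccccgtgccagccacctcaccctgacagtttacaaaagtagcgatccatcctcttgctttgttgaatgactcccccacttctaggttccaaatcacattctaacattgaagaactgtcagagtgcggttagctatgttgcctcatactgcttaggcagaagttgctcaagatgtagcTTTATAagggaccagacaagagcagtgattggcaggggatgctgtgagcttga

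The C/EBP pattern was matched in 2 of 6 member promoters, against 11.5% of 32841 mouse promoters of the same length. The Ltf match begins 75 bases before the start on the gene's strand, and the Ngp match begins 139 bases before it on the other strand. Read on the motif's own strand, both have the letters TTGGGCAAT, which 48 of the 32841 promoters (0.15%) hold, a string chosen after both matches were seen. The PU.1 pattern was matched in 3 of 6 members, against 28.3% of promoters. Its matches begin 157 bases before the start in Ltf, 219 bases before it in Mmp8, and 113 and 62 bases before it in Pglyrp1. The TATA pattern was matched in Mmp8 alone among the 6, against 13.6% of promoters. That match lies on the other strand, begins 3 bases before the annotated start and spans it. The window of Camp, shown in lower case, and that of Fcnb matched no motif. These matches describe letters in a window, and no binding was measured.

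At 72 h without IL-3, all 6 members were lower in Y577F cells than in FI-Delta cells, by between 3.53-fold for Mmp8 and 15.3-fold for Camp. On the 2 direct arrays Camp, the cathelicidin gene, had -4.10 and -3.87. In the model over all arrays it was -3.94 ± 0.15 (SE; limma, adjusted p = 3.93e-08), the lowest value of all 20243 features. Fcnb had -3.53 and -3.82 on these arrays, and its model value of -3.59 ± 0.09 was a 12.0-fold difference (adjusted p = 2.64e-09). The peptide, lectin and iron-binding members thus stood close together on this side. Ngp had -3.68 and -3.23, with a model value of -3.59 ± 0.14 (12.0-fold, adjusted p = 4.64e-08). Ltf had -3.03 and -3.42, with a model value of -3.48 ± 0.22 (11.2-fold, adjusted p = 1.62e-06). Of these 4 genes, Fcnb, Ngp and Ltf took the places 3, 4 and 5 from the bottom, behind Camp and the stefin gene Stfa1. Pglyrp1 had -2.75 and -2.46 and ranked 11, at -2.60 ± 0.09 (6.06-fold, adjusted p = 2.39e-08). Mmp8 had -2.23 and -1.61 and ranked 29, at -1.82 ± 0.16 (adjusted p = 1.54e-05). Both arrays, which carried the lines in opposite dyes, had every member well below 0, and over all features 6.45% were called lower at 72 h. The median of the members was -3.53, against 0.0073 over all features. The RNA is from whole cultures, in which fewer cells of a type and less RNA per cell cannot be told apart.

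**Figure D1:**
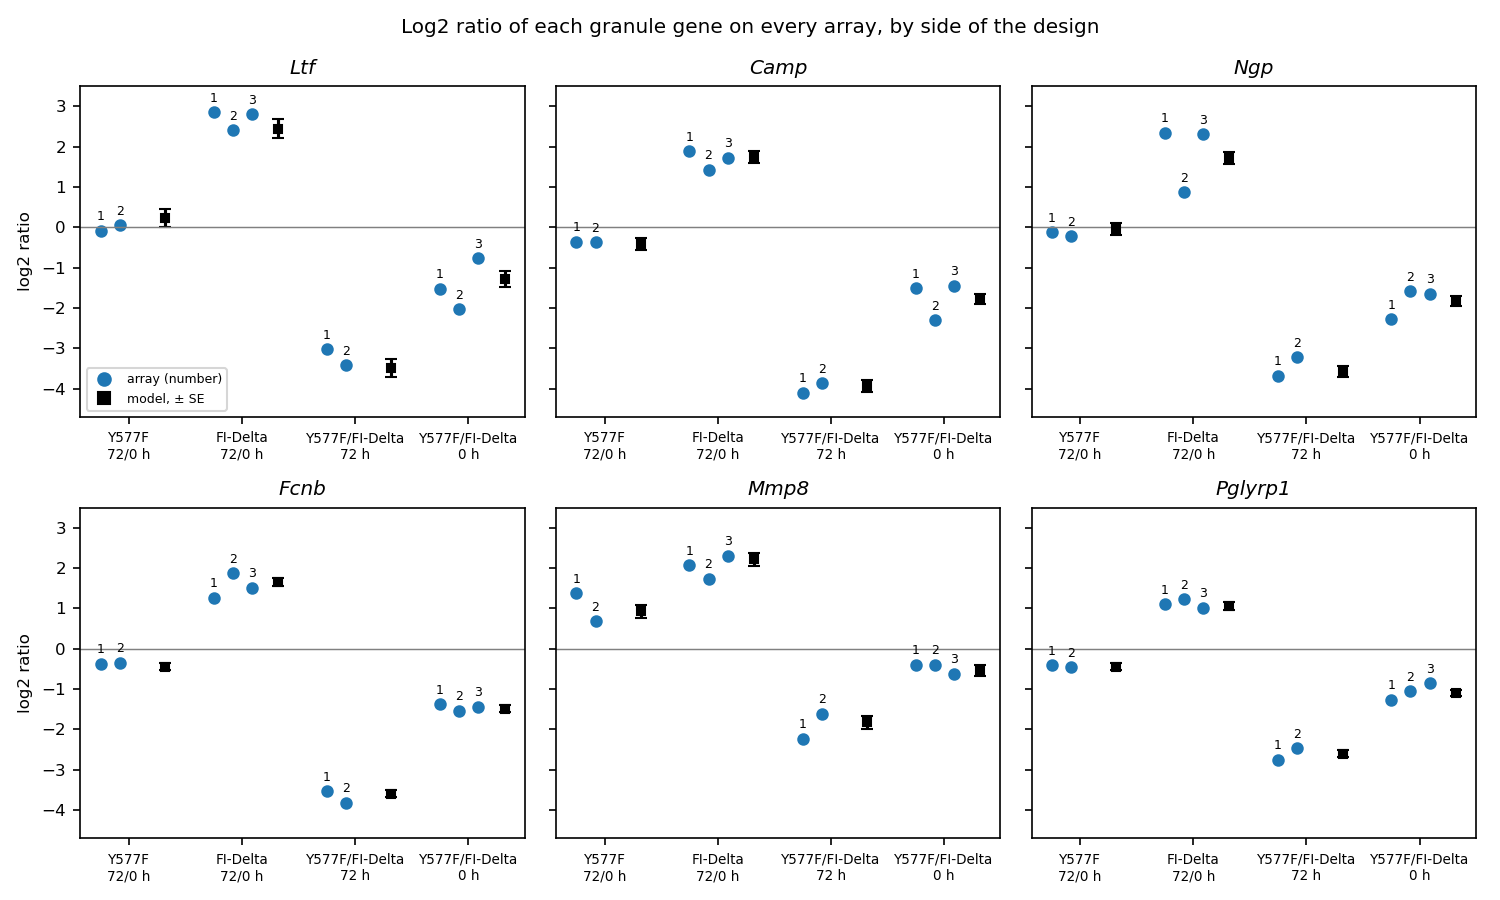
Turned log2 ratios (y axis) of the 6 granule genes, 1 panel per gene, by what the arrays compared (x axis: 72 h over 0 h in Y577F cells and in FI-Delta cells, Y577F over FI-Delta at 72 h and at 0 h). Blue points are single arrays with their number, and black squares are model values with bars of 1 SE. Every array between the lines lies below 0 and every array over time in FI-Delta cells lies above it, while the Y577F time arrays lie between -0.45 and 0.05 except for Mmp8.

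In FI-Delta cells all 6 members were higher at 72 h without IL-3 than at 0 h. Ltf, the lactoferrin gene, had 2.85, 2.40 and 2.80 on the 3 direct arrays. Its model value of 2.45 ± 0.23, a 5.45-fold rise (limma, adjusted p = 6.45e-05), was the highest of all features. Mmp8, the collagenase gene, had 2.08, 1.74 and 2.31, and its rise of 2.21 ± 0.17 (4.63-fold, adjusted p = 1.45e-05) was the next highest. Camp had 1.88, 1.43 and 1.72 and rose by 1.75 ± 0.15 (3.36-fold, adjusted p = 3.48e-05). Ngp had 2.35, 0.87 and 2.31 and rose by 1.71 ± 0.14 (3.28-fold, adjusted p = 2.84e-05). Ngp was thus the member whose arrays lay furthest apart on this side, the low value being on FI-Delta time array 2, which repeated the RNA of array 1 with the dyes exchanged. Fcnb had 1.27, 1.88 and 1.51 and rose by 1.66 ± 0.09 (3.16-fold, adjusted p = 2.8e-06). Pglyrp1 had 1.11, 1.23 and 1.02 and rose by 1.06 ± 0.09 (2.09-fold, adjusted p = 3.64e-05). No array of any member was at or below 0. The share of all features called higher on this side was 5.19%, and the members' median was 1.73, against -0.0055 over all features. Camp, Ngp, Fcnb and Pglyrp1 ranked 6, 7, 11 and 84 from the top.

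In Y577F cells the members did not move together over the same 72 h. Mmp8 alone rose, Fcnb and Pglyrp1 fell, and Ltf, Camp and Ngp did not pass the test. Mmp8 had 1.38 and 0.69 on the 2 direct arrays and rose by 0.93 ± 0.16 (1.91-fold; limma, adjusted p = 0.00159). Without Y577F time array 1 its rise was 0.59 (adjusted p = 0.0386). Mmp8 was thus the only member above 0 on both arrays, which themselves lay apart. Fcnb had -0.37 and -0.35 and fell by 0.44 ± 0.09 (1.36-fold, adjusted p = 0.00438). Pglyrp1 had -0.42 and -0.45 and also fell by 0.44 ± 0.09 (adjusted p = 0.00486). Both falls were small beside the 72 h differences between the lines. With a replicate block fitted in place of the dye term their adjusted p-values were 0.0697 for Fcnb and 0.0549 for Pglyrp1, against 0.00656 and 0.00922 with neither. Pglyrp1 also lost its call without Y577F time array 2, at adjusted p = 0.0583. Camp had -0.36 and -0.37, and its model value of -0.41 ± 0.15 missed the threshold (adjusted p = 0.077, 95% interval -0.73 to -0.09). It passed without 0 h array 2, at -0.48 (adjusted p = 0.00915). Ltf and Ngp lay around 0. Ltf had -0.09 and 0.05 on the arrays and 0.24 ± 0.22 in the model (adjusted p = 0.555, 95% interval -0.25 to 0.73). Ngp had -0.12 and -0.23 on the arrays and -0.05 ± 0.14 in the model (adjusted p = 0.886, 95% interval -0.35 to 0.26). Over all features 9.28% were called higher and 8.75% lower on this side, so that 1 higher and 2 lower of 6 members are counts from a side on which many features moved. The members' median was -0.23, against 0.0073 over all features.

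With IL-3 present, 5 of 6 members were already lower in Y577F cells than in FI-Delta cells, against 0.484% of all features called lower. Ngp had -2.28, -1.58 and -1.65 on the 3 arrays at 0 h. Its model value of -1.83 ± 0.12 (3.54-fold; limma, adjusted p = 3.09e-05) was the lowest of all features. Camp, at -1.52, -2.31 and -1.45, was next with -1.78 ± 0.13 (3.43-fold, adjusted p = 5.32e-05). The cathelicidin gene and its relative thus held the lowest places at 0 h. Fcnb had -1.38, -1.54 and -1.44, the narrowest spread of the members, with -1.49 ± 0.08 (2.80-fold, adjusted p = 1.43e-05). Pglyrp1 had -1.26, -1.06 and -0.86, with -1.09 ± 0.08 (2.13-fold, adjusted p = 5.32e-05). Ltf had -1.53, -2.03 and -0.77, with -1.27 ± 0.20 (2.42-fold, adjusted p = 0.00859). Ltf was the member that varied most between the 0 h arrays, and its call depended on 0 h array 1, without which it was -1.10 (adjusted p = 0.224). With a replicate block in place of the dye term Ltf was -0.98 (adjusted p = 0.124), and with neither it was -1.27 (adjusted p = 0.00729). Mmp8 had -0.40, -0.40 and -0.62, and its -0.54 ± 0.14 did not pass (adjusted p = 0.114, 95% interval -0.85 to -0.23). The 0 h arrays were poorly matched over all features. Array 1, which carried FI-Delta RNA in Cy5, had correlations of -0.0871 and 0.0374 across features with arrays 2 and 3 as deposited, where opposite dyes should give a negative value. Arrays 2 and 3, with the same dyes, had 0.357. By the titles as read here, these arrays also share the RNA of 1 Y577F culture, which array 1 does not carry. Correlations across features are descriptions, since features are not replicates. The members nonetheless had the same sign on all 3 arrays after turning, though arrays 2 and 3 share RNA. The members' median in the model was -1.38, against -0.0059 over all features.

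**Figure D2:**
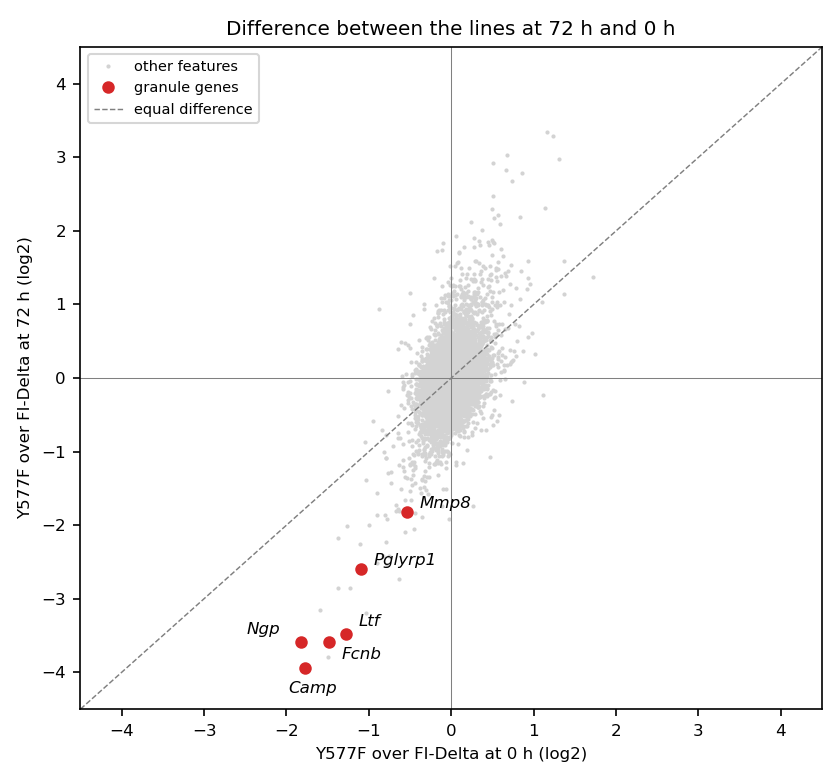
Log2 difference of Y577F over FI-Delta cells at 72 h (y axis) against that at 0 h (x axis), from the model, with the 6 granule genes in red, all other features in grey and a dashed line where both differences are equal. All 6 lie below the dashed line, at 72 h values between -3.94 for Camp and -1.82 for Mmp8, and at 0 h values between -1.83 for Ngp and -0.54 for Mmp8.

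Whether the 72 h change itself differed between the lines was tested in the same fit, and all 6 members were lower, meaning that the change over time in Y577F cells lay below that in FI-Delta cells. Of all features, 4.91% were called lower in this test. Ltf differed by -2.21 ± 0.26 (4.62-fold; limma, adjusted p = 0.00034), Camp by -2.16 ± 0.17 (4.47-fold, adjusted p = 2.21e-05) and Fcnb by -2.10 ± 0.10 (4.30-fold, adjusted p = 2.75e-06). Ngp differed by -1.76 ± 0.16 (3.39-fold, adjusted p = 6.3e-05) and Pglyrp1 by -1.51 ± 0.10 (2.84-fold, adjusted p = 1.34e-05). Mmp8, which rose in both lines, had the smallest difference among the members, at -1.28 ± 0.18 (2.43-fold, adjusted p = 0.00128). From the direct time arrays alone, Mmp8 was at -1.08 and did not pass (adjusted p = 0.129). The other 5 kept their calls under that alternative. This difference equals the 72 h difference between the lines less the 0 h difference, so it shares its arrays with the sides above and is not a separate observation.

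Set on a scale of levels relative to each gene's own mean over the 4 RNA groups, the members had FI-Delta cells at 72 h on top in every case. For Camp the relative log2 levels were -1.63 ± 0.09 in Y577F cells at 72 h and -1.22 ± 0.09 in Y577F cells at 0 h, against 2.30 ± 0.10 in FI-Delta cells at 72 h and 0.55 ± 0.09 in FI-Delta cells at 0 h (SE from the model). Fcnb had -1.49 ± 0.06 and -1.05 ± 0.05 in Y577F cells at 72 h and 0 h, against 2.10 ± 0.06 and 0.44 ± 0.06 in FI-Delta cells at 72 h and 0 h. Pglyrp1 had -1.15 ± 0.06 and -0.70 ± 0.05 in Y577F cells at 72 h and 0 h, against 1.45 ± 0.06 and 0.39 ± 0.06 in FI-Delta cells at 72 h and 0 h. These 3 genes had the same order, with FI-Delta cells at 72 h highest, then FI-Delta cells at 0 h, then Y577F cells at 0 h, then Y577F cells at 72 h. For Camp the lower neighbours, Y577F cells at 72 h and at 0 h, were not separated by the test (adjusted p = 0.077), while for Fcnb and Pglyrp1 all neighbours differed. Ngp had -1.38 ± 0.09 and -1.33 ± 0.08 in Y577F cells at 72 h and 0 h, which the test did not separate (adjusted p = 0.886), against 2.21 ± 0.09 and 0.50 ± 0.09 in FI-Delta cells at 72 h and 0 h. Ltf had -1.07 ± 0.15 and -1.31 ± 0.13 in Y577F cells at 72 h and 0 h, which it did not separate either (adjusted p = 0.555), against 2.41 ± 0.15 and -0.03 ± 0.14 in FI-Delta cells at 72 h and 0 h. As fitted, Ngp had the same order as the 3 genes above, and every member but Mmp8 had Y577F cells of both times at the bottom. Y577F cells at 72 h were below even FI-Delta cells at 0 h in 5 of 6 members, with 5.62% of all features called lower in that comparison. For Ltf this was -1.04 ± 0.26 (adjusted p = 0.0196), a call lost without 0 h array 1 (adjusted p = 0.0916) or when either Y577F time array was left out (adjusted p = 0.152 and 0.0657).

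Mmp8 had another order. Its relative log2 level was -0.12 ± 0.10 in Y577F cells at 72 h and -1.05 ± 0.10 in Y577F cells at 0 h, against 1.70 ± 0.10 in FI-Delta cells at 72 h and -0.52 ± 0.10 in FI-Delta cells at 0 h. Y577F cells at 72 h thus stood in the second place, and their difference of 0.39 ± 0.18 over FI-Delta cells at 0 h did not pass (adjusted p = 0.219). It passed without 72 h array 1, at 0.62 (adjusted p = 0.0386). FI-Delta and Y577F cells at 0 h were also neighbours that the test did not separate (adjusted p = 0.114). The span between the highest and the lowest group was 3.94 for Camp, 3.72 for Ltf, 3.59 for Ngp and Fcnb, 2.75 for Mmp8 and 2.60 for Pglyrp1, all as log2 differences.

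**Figure D3:**
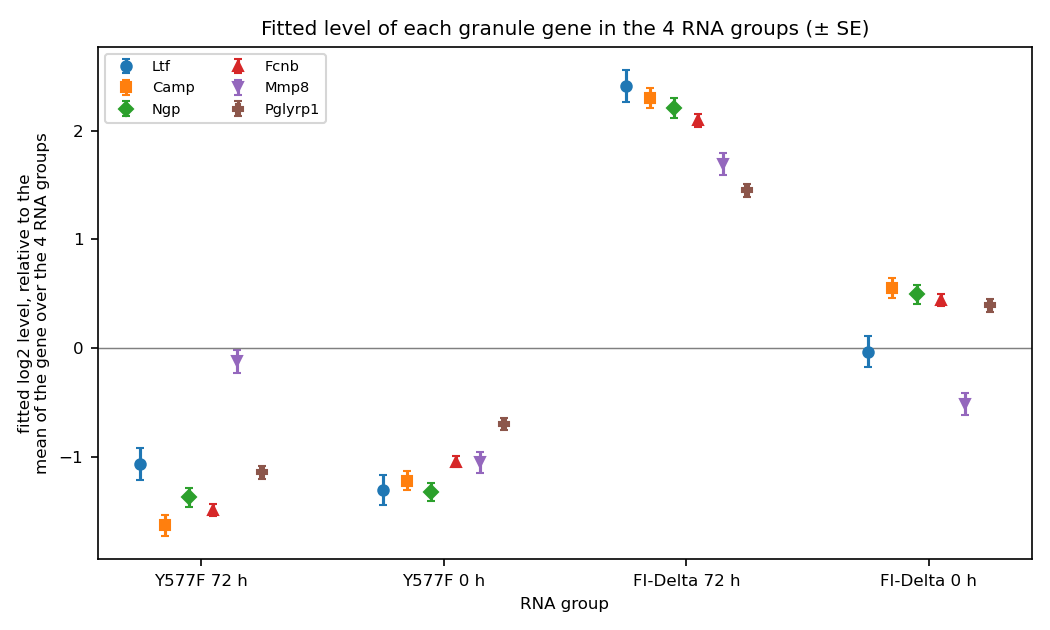
Level of each granule gene in the 4 RNA groups relative to the gene's own mean over those groups, as log2 values from the model (y axis) by RNA group (x axis), with 1 symbol per gene and bars of 1 SE. FI-Delta cells at 72 h are highest for all 6 genes, and Mmp8 differs from the other 5 in that Y577F cells at 72 h lie above FI-Delta cells at 0 h, by 0.39.

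Because the arrays form a loop through the 4 groups, each gene's direct ratios can be summed by either path from FI-Delta cells at 0 h to Y577F cells at 72 h, and the paths should give the same value. The path through FI-Delta cells at 72 h less the path through Y577F cells at 0 h was -0.02 for Pglyrp1, -0.17 for Camp, -0.32 for Fcnb, -0.37 for Mmp8 and 0.52 for Ngp. For Ltf it was 0.94, more than in all but 0.262% of features, whose SD was 0.245. Ltf is therefore the member whose side values hold least tightly together. Its direct time arrays in FI-Delta cells gave 2.40 to 2.85, against 2.45 in the model, and its 0 h arrays gave -2.03 to -0.77, against -1.27.

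The members resembled each other over the 9 hybridisations left after the dye swap of the same RNA was averaged. The measure of likeness was an uncentred correlation, for which all features share the same arrays and no p is given. The 10 pairs among Ltf, Camp, Ngp, Fcnb and Pglyrp1 had values between 0.942 and 0.994, and the 5 pairs with Mmp8 had values between 0.773 and 0.883. Against the mean of the other 5, Mmp8 had 0.828, and the remaining members lay between 0.972 and 0.984. The 8 other named genes most like the members' mean, of 2539 features called in at least 2 comparisons, were Lrg1 (0.993), Mmp9 (0.990), Tmem216 (0.989), Lcn2 (0.986), Cnn2 (0.985), Kcna6 (0.983), Itgb2l (0.982) and Lta4h (0.978). Lrg1 encodes a leucine-rich glycoprotein, Mmp9 the gelatinase of tertiary granules, Lcn2 the secondary granule protein lipocalin 2 and Lta4h the enzyme that makes leukotriene B4. At 72 h these 8 were lower in Y577F cells by log2 values between -1.37 for Cnn2 and -2.42 for Mmp9, less than Camp, Fcnb, Ngp or Ltf. The 8 were picked for likeness to the members over the same arrays, so their direction here is not a separate observation.

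Of 26 measured genes from a list of 30 other granule and neutrophil genes, 18 rose and none fell over 72 h in FI-Delta cells (median 0.78), against 20 at an unadjusted p under 0.05. They included Fpr2, a receptor for formylated peptides (1.60 ± 0.14), the integrin gene Itgam (1.50 ± 0.10), Mmp9 (1.43 ± 0.11), Lcn2 (1.29 ± 0.10) and Padi4 (1.23 ± 0.11), whose enzyme converts arginine to citrulline in histones. Of all features, 5.19% were called higher and 2.97% lower on that side. The 18 were 15 to 18 with an array left out and 13 to 18 in the fits without the dye term. At 72 h 14 of the 26 were lower and 3 higher in Y577F cells (median -0.34), against 6.45% and 6.44% of all features. The 14 were 11 to 14 with an array left out, and also in the fits without the dye term. The lower ones were led by S100a9 (-2.86 ± 0.17), Mmp9 (-2.42 ± 0.10), Lcn2 (-1.91 ± 0.10), S100a8 (-1.87 ± 0.16) and Padi4 (-1.83 ± 0.10). S100a9 and S100a8 encode the subunits of calprotectin. The higher ones, named after their values were seen, were Fpr2 (1.46), the oxidase subunit gene Cybb (0.74) and Csf3r (0.36), which encodes the G-CSF receptor and lost its call without 72 h array 1 or 2. In Y577F cells over time 9 rose and 1 fell, against 9.28% and 8.75% of all features. The 9 were led by Fpr2 at 2.37, the integrin gene Itgb2 at 1.51, Csf3r at 1.29, Anxa1 at 0.94 and Hp at 0.93. The 1 that fell was S100a9, at -0.67, a call lost without Y577F time array 1 or without the dye term. At 0 h 8 were lower and 1 higher, against 0.484% and 0.934% of all features. The 8 were led by S100a9 at -1.22 ± 0.15, Mmp9 at -0.83 ± 0.09, S100a8 at -0.81 ± 0.15, Lcn2 at -0.79 ± 0.09 and Anxa1 at -0.71 ± 0.09. The 8 became 5 without 0 h array 1 or Y577F time array 2, 4 without 0 h array 2 or 72 h array 1, and 0 with a replicate block but no dye term, against 7 without the dye term alone. The 1 that was higher, Fpr2 at 0.69, was no longer called when any of the 3 arrays at 0 h, or Y577F time array 2, was left out. The difference between the lines in the 72 h change was called lower in 12 and higher in 4 of the 26, against 4.91% and 4.33% of all features. The 12 were led by S100a9 (-1.63), Mmp9 (-1.59), Padi4 (-1.39), Itgb2l (-1.13) and Lcn2 (-1.13). With an array left out the 12 became 8 to 11. The 4 became 2 without 0 h array 1 and 0 without 72 h array 2. Without the dye term 11 were lower and 2 higher, and with a replicate block as well 6 were lower and 0 higher.

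**Figure D4:**
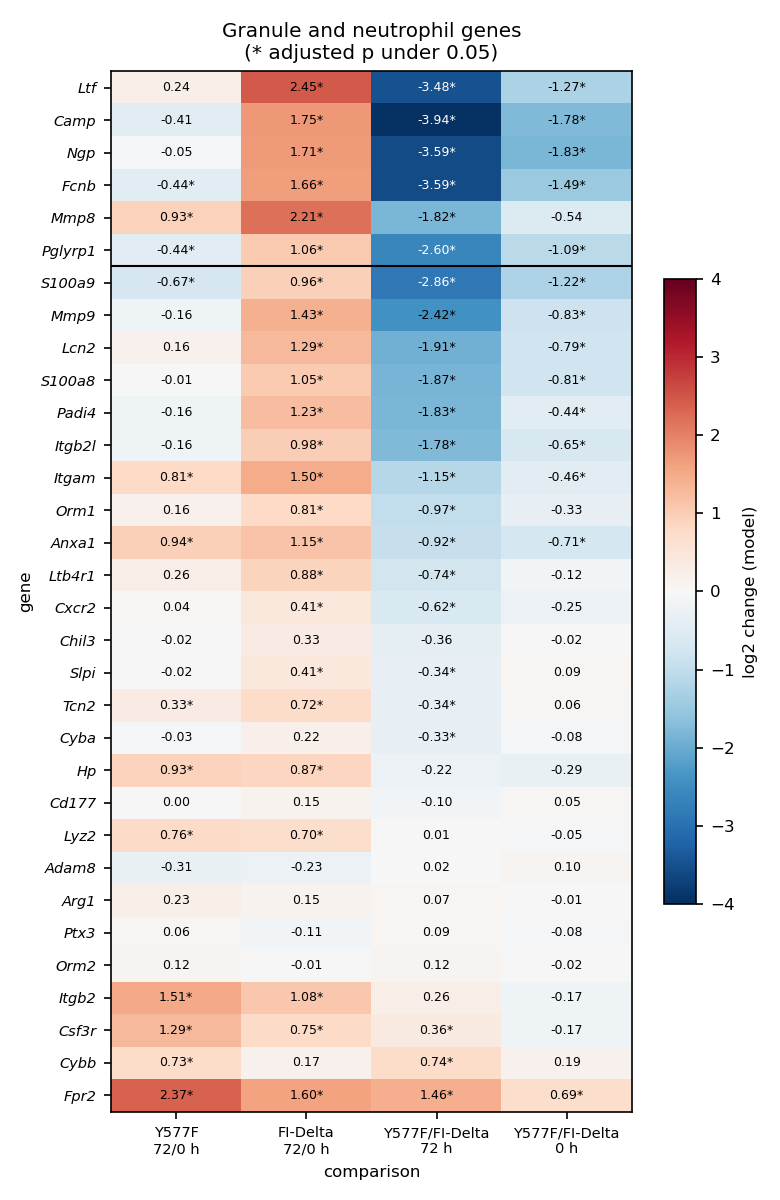
Model log2 changes of the 6 granule members (above the black line) and of 26 other granule and neutrophil genes (below it, sorted by the 72 h difference between the lines), in 4 comparisons along the x axis. Blue is lower, red is higher, and a star marks an adjusted p under 0.05. Between the lines at 72 h the members run from -3.94 to -1.82, and the others from -2.86 for S100a9 to 1.46 for Fpr2.

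Primary granule genes are made earlier in maturation than the members. Of 9 measured from a list of 11, 8 fell and 1 rose over 72 h in Y577F cells (median -0.72), where 8.75% of all features were called lower and 9.28% higher, with the cathepsin G gene Ctsg at -1.57, the protease inhibitor gene Serpinb1a at -1.37, the elastase gene Elane at -0.85 and the proteinase 3 gene Prtn3 at -0.80. The 1 that rose was Ctsc, at 0.99, which encodes the protease that activates granule serine proteases. In FI-Delta cells 5 of the 9 rose and 1 fell (median 0.36), against 5.19% and 2.97% of all features, with Ms4a3 and Elane at 0.71, Prtn3 at 0.68 and Serpinb1a at 0.63. The 1 that fell, Srgn at -0.54, was not called once FI-Delta time array 2 was left out, and a replicate block with no dye term left 3 that rose and 0 that fell, against 5 and 1 without the dye term alone. These rises were smaller than those of the 6 members, whose lowest was 1.06. At 72 h 6 of the 9 were lower and 1 higher in Y577F cells (median -1.74), against 6.45% and 6.44% of all features, led by Elane (-3.16), Prtn3 (-2.86), Ctsg (-2.52) and Ms4a3 (-2.26). At 0 h 5 were lower (median -0.59), against 0.484% of all features, with Elane at -1.60 and Prtn3 at -1.38, and a replicate block with no dye term left 3, against 5 without the dye term alone. The difference in the 72 h change was called lower in 6 and higher in 1 (median -1.15), against 4.91% and 4.33% of all features, and the 1 that was higher was lost with a replicate block but no dye term, but not without the dye term alone.

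Among 11 measured genes of a list of 12 granulocyte transcription factors, Cebpb, which encodes a C/EBP factor of myeloid cells, rose by 1.36 ± 0.09 in Y577F cells and by 0.68 ± 0.10 in FI-Delta cells. Cebpe was not analysed here. Of all features, 9.28% were called higher and 8.75% lower over time in Y577F cells, and 5.19% and 2.97% over time in FI-Delta cells. These shares were 0.934% and 0.484% at 0 h, 6.44% and 6.45% at 72 h, and 4.33% and 4.91% for the difference in change. In Y577F cells 4 of the 11 rose and 3 fell, including Irf8, a factor of monocyte development, at 1.19 ± 0.08 and Myb, a factor of progenitors, at -1.12 ± 0.09. Cebpd was at 0.76 and Gata2 at -0.90. In FI-Delta cells 4 rose and 3 fell, including Cebpa at -0.86 ± 0.12, Gata2 at -1.08, Runx1 at -0.51 and Klf5 at 0.42. Runx1 and Klf5 were among the genes not called there when 0 h array 1 or FI-Delta time array 3 was left out. Leaving out FI-Delta time array 2, Y577F time array 1 or 72 h array 1 made the 4 that rose there 2, and leaving out FI-Delta time array 3 or fitting a replicate block with no dye term made them 1, against 3 without the dye term alone. At 0 h, where few features of any kind were called, limma called 0 of the 11, with 4 at an unadjusted p under 0.05. At 72 h 4 were higher and 2 lower in Y577F cells, with Irf8 at 0.87 ± 0.08, Runx1 at 0.73, Cebpb at 0.71 ± 0.09, Gata2 at 0.57 and Myb at -0.90 ± 0.09. The other lower gene, Klf5 (-0.52), was not called when FI-Delta time array 2 or 72 h array 1 was left out, nor Gata2 when 72 h array 2 was. The largest of these differences was smaller than that of any of the 6 granule members at 72 h. The difference in the 72 h change was called higher in 3 and lower in 1.

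Markers of other blood cell types moved on the same sides as the members, and their part in the members' differences was not tested. Ratios give no summed level, so counts and medians stand for the lists. They are read against the shares of all features called, which were 6.44% higher and 6.45% lower at 72 h, 9.28% and 8.75% over time in Y577F cells, 5.19% and 2.97% over time in FI-Delta cells, and 0.934% and 0.484% at 0 h. Of 11 measured monocyte and macrophage genes, 10 were higher in Y577F cells at 72 h and none lower (median 1.10), led by the elastase gene Mmp12 (2.83) and the cathepsin gene Ctss (2.22), while all 6 granule members were lower. Over 72 h 10 of the 11 rose in Y577F cells (median 2.09) and 8 in FI-Delta cells (median 0.68), of which 5 were left without FI-Delta time array 3 or with a replicate block but no dye term, against 7 without the dye term alone. At 0 h 4 were higher (median 0.18), which became 0 without 0 h array 1 or with a replicate block but no dye term, against 3 without the dye term alone. The difference in the 72 h change was called higher in 9 (median 0.92), against 4.33% of all features. Of 7 mast cell and basophil genes, 2 were higher in Y577F cells at 72 h, Fcer1a (2.32) and Cpa3 (2.29), and 1 was lower, Hdc (-1.25). Of 5 eosinophil genes 1 was higher, Il5ra (0.52), and 1 lower, Prg2 (-0.33), and of 6 erythroid and megakaryocyte genes 2 were higher, led by Itga2b (1.75), and 1 was lower, Hba-a1 (-0.37). The calls of Prg2 and Hba-a1 were each lost without 72 h array 1 or 2 or without the dye term. At 0 h, where 5 of 6 members were lower, Fcer1a (1.14, adjusted p = 0.00859), Cpa3 (0.49) and Itga2b (0.61) were higher and Hdc (-0.47) was lower, while none of the 5 eosinophil genes was called and 2 had an unadjusted p under 0.05. Of these calls only that of Itga2b was kept without 0 h array 1. Over time in Y577F cells 3 mast cell and basophil genes fell and 1 rose, 1 eosinophil gene fell and 2 rose, and 2 erythroid and megakaryocyte genes fell and 2 rose. Of these, the fall of the eosinophil gene and every rise but 1 were not called without Y577F time array 1. Over time in FI-Delta cells, where all 6 members rose, 3 mast cell and basophil genes and 2 erythroid and megakaryocyte genes fell, and 1 eosinophil gene, Prg3, rose, which was not called when 0 h array 1 or either FI-Delta time array 2 or 3 was left out.

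Camp, Ngp and Ltf lie close to each other on chromosome 9, which allowed their neighbours to be compared with them. In the RefSeq annotation 18 genes, 8 of them protein-coding, lie between Camp and Ngp and 25, 20 of them protein-coding, between Ngp and Ltf. Of the 18 measured genes between Camp and Ltf other than Ngp, 1 was called at 72 h, the cell cycle phosphatase gene Cdc25a, which was lower in Y577F cells (-0.66, adjusted p = 0.00038). The rest lay between -0.12 and 0.17, while Camp, Ngp and Ltf lay between -3.94 and -3.48. Over 72 h in FI-Delta cells the 18 had a median of -0.05 and a highest value of 0.21, and 1 was called, the chromatin remodelling gene Smarcc1 (-0.53, adjusted p = 0.00207). None of the 18 was called at 0 h. Of all features, 6.44% were called higher and 6.45% lower at 72 h. These shares were 5.19% and 2.97% over time in FI-Delta cells, and 0.934% and 0.484% at 0 h. Counts this small are close to these shares and say little about the 18 as a set. The 18 were not counted over time in Y577F cells, where Cdc25a was also called (-0.36, limma, adjusted p = 0.0132). Around 5 of the 6 members, 14 measured genes were among the 3 next ones on either side, and for Pglyrp1 none of these was measured. Of the 14, 4 were called on at least 1 side of the design, against 24.6% of all features. They were Ccrl2 next to Ltf (0.61 over time in Y577F cells, 0.51 in FI-Delta cells and 0.28 at 72 h), Cdc25a and Nme6 (-0.39 at 72 h, adjusted p = 0.019) near Camp, and Olfm1 near Fcnb (0.38 over time in Y577F cells). None of them differed by more than 0.66 on any side, less than any member at 72 h.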

How the data were processed

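Per the labels' protocols, total RNA of the 4 groups was labelled with Cy5 or Cy3 by a post-labelling kit, and 10 spotted arrays each received a pair of groups. The values deposited by the authors are log ratios between both dyes of an array, read here as log2. The submitters' processing notes name limma, while the sources used here do not give its version, the background correction or the normalization. The log base was taken as 2 because limma writes log2 ratios. The medians of the arrays were -0.0111 to 0.00335, with standard deviations of 0.233 to 0.371. Spot intensities were not used here, and precision is limited by how few arrays there were.

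Of 23040 spots, 1243 controls were left out. Of 21797 probes, 16651 had a single gene symbol, 137 several and 5009 none, and 15973 matched the reference table with 0 symbols changed. Averaging probes of the same gene gave 20243 features, with 0 missing values. A feature may also detect relatives of its gene. Both dye assignments of the same FI-Delta RNA were averaged, which left 9 hybridisations. limma 3.58.1 in R 4.3.3 fitted the 4 RNA groups with 3 coefficients, plus a dye term (5 residual and 6.34 prior degrees of freedom). The dye term was called for none of the members, whose adjusted p-values for it lay between 0.195 and 0.977, and for 146 features in all. Tests were two-sided, Benjamini-Hochberg adjustment ran over all features of a comparison, and a call is an adjusted p under 0.05. The p-values treat arrays as independent although arrays share RNA, so they measure the spread between arrays. The fit was also run on data simulated from it with independent noise, which cannot show how RNA shared between arrays affects the p-values.

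Deposited ratios of opposite dye assignment correlated at -0.519 at 72 h, -0.630 over time in Y577F cells, and -0.236 and -0.351 over time in FI-Delta cells. The replicate block, fitted in place of the dye term, takes numbers 1 and 2 as FI-Delta cultures and numbers 3 and 4 as Y577F cultures. On the arrays between the lines with Y577F in Cy5, the labels give these numbers to the opposite lines, and the block reverses their order there. The pairing is therefore a reading of the titles, and the fit without it is reported.

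The members and the gene lists were chosen with earlier results of these data known. Named genes are the members, up to 5 called genes of each list per comparison by size, the 8 named genes most like the members' mean, and the measured genes among the 3 next to each member on each side. Genes outside this rule are said to be named after their values were seen, or are the single genes behind a count. The lists cover other granule and neutrophil genes, primary granule genes, granulocyte transcription factors, and markers of monocytes and macrophages, mast cells and basophils, eosinophils, and erythroid cells and megakaryocytes. Alternatives changed the dye term, the block, scaling, centring, probe averaging, the dye swap and the arrays used, and left out each array in turn. Those for the gene lists were added after seeing the data.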

Additional observations from a re-analysis of the deposited data

Results flagged for a closer look

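The 72 h change differed between the lines in the test of the difference itself for all 6 members, given here as the log2 change of Y577F cells less that of FI-Delta cells. It was -2.21 for Ltf, -2.16 for Camp, -2.10 for Fcnb, -1.76 for Ngp, -1.51 for Pglyrp1 and -1.28 for Mmp8. The test shares its arrays with the separate sides. It was called lower for 4.91% of all features. Groups had too few arrays for a test of single outlying arrays.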

How the results depend on the processing

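Of 510 values (30 changes of members under 17 alternatives), 496 kept direction and side of the threshold, 9 lost their call, 1 gained one and 4 reversed. All 6 members kept their calls over time in FI-Delta cells and between the lines at 72 h under all 17. The reversals were of values near 0 that were not called, namely Ltf over time in Y577F cells from its direct arrays alone (-0.019), and Ngp on that side with arrays scaled (0.069), without FI-Delta time array 2 (0.03) and without Y577F time array 2 (0.24), in a range of -0.16 to 0.24 with an array left out. For Ngp, Y577F cells at 0 h over those at 72 h ranged from -0.24 to 0.16 with an array left out. Members called over time in Y577F cells were 3, but 1 with a replicate block but no dye term and 2 to 4 with an array left out. Members called at 0 h were 5, but 4 with a replicate block but no dye term, 4 from direct arrays alone and 4 to 5 with an array left out. The replicate block was fitted only without the dye term. Without the dye term alone, the members called on the 5 comparisons were as many as with it, and the features called were 3086 over time in Y577F cells, 1489 over time in FI-Delta cells, 234 at 0 h, 2096 at 72 h and 1600 for the difference in change. With a replicate block but no dye term, the features called were 1721, against 3649, over time in Y577F cells, 544, against 1652, over time in FI-Delta cells, 22, against 287, at 0 h, 1060, against 2609, at 72 h, and 440, against 1871, for the difference in change. From direct arrays alone they were 2224, 912, 46, 1018 and 210 in the same order. With an array left out they ranged from 1949 to 3627, 887 to 1953, 57 to 299, 1403 to 2629, and 911 to 1861. The block and the direct arrays fit more coefficients or use fewer arrays. Among members, calls that held without the dye term alone were lost with the block and no dye term for Fcnb and Pglyrp1 over time in Y577F cells and for Ltf at 0 h. Fcnb over time in Y577F cells also lost its call from direct arrays alone (adjusted p = 0.0998), Pglyrp1 with arrays scaled (adjusted p = 0.0579), and Ltf at 0 h from direct arrays alone (-1.44, adjusted p = 0.0604). The cause was not tested.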

Other observations

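Relatives of the members in other tissues or cells were read after the members' values were seen. Trf, which encodes transferrin, a relative of lactoferrin, moved opposite to Ltf. It was higher in Y577F cells at 72 h (1.48 ± 0.14, limma, adjusted p = 2.88e-05) and fell by 1.02 ± 0.14 over 72 h in FI-Delta cells (adjusted p = 0.00109), while at 0 h it did not pass (0.56, adjusted p = 0.0544). Meltf, which encodes melanotransferrin, was higher in Y577F cells at 72 h by 0.34 (adjusted p = 0.0367). Of the other matrix metalloproteinase genes, Mmp14 was higher in Y577F cells at 72 h (0.67, adjusted p = 0.000681) and fell by 0.53 over 72 h in FI-Delta cells (adjusted p = 0.00637), also opposite to Mmp8. Mmp13 rose by 0.35 in FI-Delta cells (adjusted p = 0.0243). Pglyrp2, a relative of Pglyrp1, fell by 0.58 ± 0.09 over 72 h in Y577F cells (adjusted p = 0.000683) and did not pass at 72 h (-0.20, adjusted p = 0.169). In limma's test of the difference in the 72 h change, Pglyrp2 (-0.42, adjusted p = 0.0234) and Mmp13 (-0.44, adjusted p = 0.0127) were lower, like the members. Trf (0.92, adjusted p = 0.00428) and Mmp14 (0.46, adjusted p = 0.0235) were higher in that test. Fcna, the relative of Fcnb, had 0.01 over time in FI-Delta cells and 0.05 at 72 h, and passed in neither.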
